A study of Mus musculus with 12 samples.

Results

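The molecular clock was followed here through 10 of its genes, measured by RNA-seq in liver, skeletal muscle, white adipose tissue (WAT) and brown adipose tissue (BAT) of mice fed either normal chow (NCD) or a diet rich in fat (HFD). The genes were chosen by name, as the rows of the deposited expression table whose symbol is Arntl, Clock, Npas2, Per1, Per2, Per3, Cry1, Nr1d1, Nr1d2 or Dbp, and they make up 10 of its 22276 symbols. The NCD-veh mice received NCD and vehicle (veh), the HFD-veh mice HFD and veh, and the HFD-ncls mice HFD and narciclasine (ncls), a plant alkaloid. All were male C57BL/6J mice aged 17 wk. The mice were kept under a 12-h light-dark cycle, the fat-rich diet was begun at 8 wk of age, and from 10 wk they were gavaged once a week, 7 wk in all, with veh or with ncls at 1 mg/kg. Each of the 12 combinations of organ and group was represented by 1 library. How many mice each library holds, and whether the organs of a group came from the same mice, is not given in the sources used here. The clock hour and feeding state at which the tissues were taken are not given either, so the group and the hour of collection cannot be told apart in anything below.

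Levels are the deposited FPKM values, that is, fragments scaled for transcript length and for the size of the library. Where 3 values follow each other for an organ, they stand for the NCD-veh, the HFD-veh and the HFD-ncls library, in this order. Differences between libraries are log2 ratios of FPKM + 0.1, and a difference is counted when it is over 2-fold and the gene reached 1 FPKM in either library. The added 0.1 makes the differences of low genes smaller than they were. Since no group was replicated, the spread between mice is unknown, no test was run, and every comparison describes single libraries. The libraries held about 18200000 (HFD-ncls WAT) to 25600000 (HFD-veh muscle) fragments, estimated from the steps between low FPKM values. In liver the adipocyte markers summed to 11.99 to 30.6 FPKM and the liver markers to 36782 to 41568 FPKM, and the labelled organ's own markers likewise dominated WAT, BAT and muscle. Markers of a second organ were found in a few libraries and are given beside the results they touch.

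The clock is a loop of transcription factors that runs in nearly every cell and is set by light, feeding and hormones. BMAL1 (encoded by Arntl) pairs with CLOCK, or with its relative NPAS2, and binds E-box sequences to switch on the Per and Cry genes, whose proteins then return to the nucleus and block BMAL1 and CLOCK. The same pair switches on Nr1d1 and Nr1d2, encoding the repressors REV-ERBα and REV-ERBβ, which bind ROR elements and hold down Arntl, Clock, Npas2 and Cry1. It also switches on Dbp, encoding an activator that binds D-box sequences, among them those of Per genes. Transcripts repressed through ROR elements and transcripts driven through E-boxes or D-boxes therefore peak at different hours of the day in a normal mouse. Arntl, Clock, Npas2 and Cry1 are called the RORE arm below, and Per1, Per2, Per3, Nr1d1, Nr1d2 and Dbp the E-box/D-box arm. Cry1 is also driven through E-boxes, so its place in the RORE arm is a choice.

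The sequences that tie these genes into the loop were looked up in RefSeq promoters (GRCm38.p6), which run from 250 bases before to 50 bases after each transcript start. They were available for 9 of the 10 genes, in 13 windows, and Per2 had no entry. Both strands were searched for the E-box CACGTG, held by 7.15% of all 32851 windows, and for its variant CACGTT, held by 4.68%. The D-box TTANGTAA was held by 2.32% of windows and the ROR element core TAGGTCA by 2.61%. Among the 10 genes, the E-box was in the windows of Cry1 and Per1, the variant in those of Cry1 and Nr1d1, the D-box in that of Per3 and the ROR core in that of Arntl. The absence of a match says only that these letters are not in these windows, and a match is not a measured binding site. The sites below are shown because the transcripts they belong to differed most in the liver or stand for each motif, with the motif in capitals, read 5′ to 3′ on the strand of the gene. Each was located on mm9 by an exact and unique match of its whole window, and positions count from 1 at the transcript start and from -1 at the base before it. The first is the ROR core of Arntl, at position 31 (chr7:120351044-120351072, plus strand).
Arntl: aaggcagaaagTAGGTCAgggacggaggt
Nfil3, which encodes a repressor of D-boxes and is not among the 10 genes, holds the same core on the opposite strand at position -12 (chr13:53076403-53076431, minus strand).
Nfil3: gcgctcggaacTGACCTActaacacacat
The window of Per3 holds the D-box at position -205 (chr4:150418961-150418990, minus strand) and again at position -158 (chr4:150418914-150418943, minus strand).
Per3 at -205: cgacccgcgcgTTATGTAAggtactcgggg
Per3 at -158: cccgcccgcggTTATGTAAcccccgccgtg
The E-box lies at position -166 in Per1 (chr11:68912273-68912302, plus strand) and at position -60 in Cry1 (chr10:84647842-84647871, minus strand). The Per1 position counts from a RefSeq start that lies inside the GENCODE gene (chr11:68908719-68923462), not from the start of that gene.
Per1: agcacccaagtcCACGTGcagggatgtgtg
Cry1: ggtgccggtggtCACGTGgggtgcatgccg
The variant, read as AACGTG on the strand of the gene, lies at position -28 in Nr1d1 (chr11:98636702-98636731, minus strand).
Nr1d1: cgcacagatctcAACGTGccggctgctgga

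Of the 10 genes, 9 reached 1 FPKM in every organ. Npas2 stayed below 1 FPKM in all 12 libraries and is left out of the counts that need 1 FPKM. It is included where 10 genes are counted by any amount. The shares of all genes beside those counts cover only genes that reached 1 FPKM. Without Npas2, NCD-veh lay outside the HFD range by any amount for 9 of 9 genes in liver, 8 in muscle, 4 in WAT and 8 in BAT. All 10 are protein-coding in the GENCODE annotation of mm9. In the RORE arm, Arntl lies at chr7:120350979-120457636, Clock at chr5:76639992-76733817, Npas2 at chr1:39250576-39420079 and Cry1 at chr10:84594447-84647799. The Per genes lie at chr11:68908719-68923462 (Per1), chr1:93312561-93355907 (Per2) and chr4:150377761-150418774 (Per3). Nr1d1 lies at chr11:98629246-98636647, Nr1d2 at chr14:19036568-19071641 and Dbp at chr7:52960458-52965525.

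**Figure D1:**
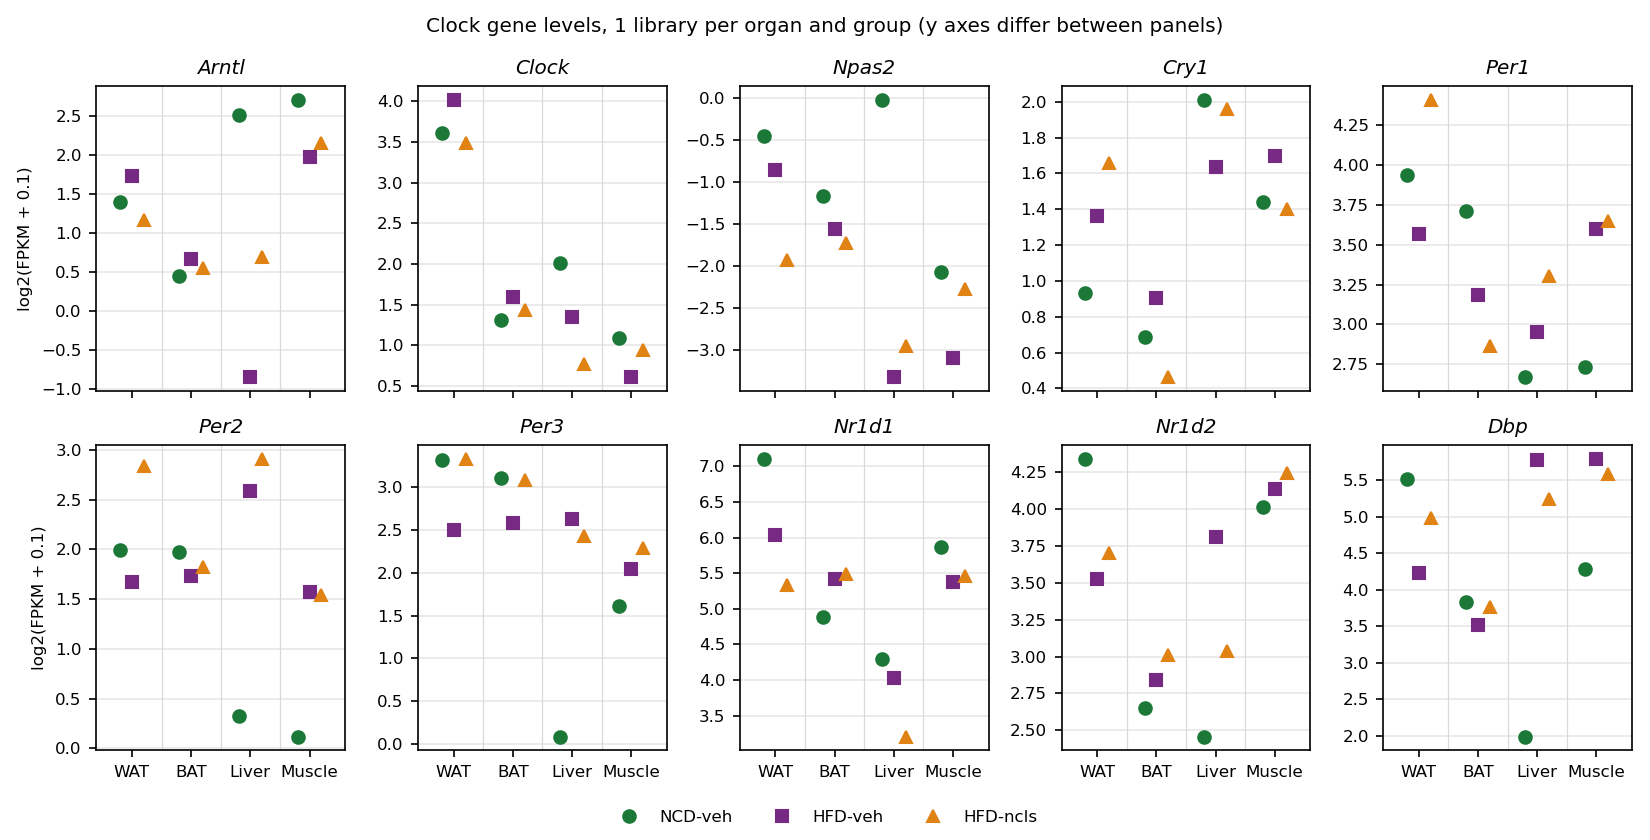
FPKM (log axis) of each of the 10 clock genes in the 12 libraries, grouped by organ, with 1 point per library and the group given by the symbol. In liver the NCD-veh point lies far above both HFD points for Arntl and far below both for Per2, Per3 and Dbp, and in BAT the 3 points lie close together for most genes.

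In the liver, the NCD-veh value lay outside the range of the HFD values for all 10 clock genes. Relative to HFD-veh, NCD-veh liver had 10.3-fold more Arntl transcript, whereas Dbp was 13.8-fold, Per3 5.82-fold, Per2 4.79-fold and Nr1d2 2.55-fold lower. Over 2-fold differences between NCD-veh and HFD-veh were thus found for 5 of the 9 genes, 1 higher and 4 lower, where 5.12% of all 10016 genes tested differed this much (2.27% higher and 2.86% lower). The median size of the difference was 1.35 on the log2 scale over the 9 genes and 0.27 over all genes.

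Arntl, which encodes the obligate partner in the activating pair, was at 5.61 FPKM in NCD-veh, 0.457 FPKM in HFD-veh and 1.52 FPKM in HFD-ncls liver. These values stand for about 380, 30 and 103 fragments, and the HFD-veh value rests on the fewest fragments of any of the 9 genes in any library. The NCD-veh value was the highest of the 3 and HFD-veh the lowest, with a log2 difference of 3.36. Clock was at 3.93, 2.44 and 1.61 FPKM, and the NCD-veh value was again the highest but exceeded HFD-veh by only 1.58-fold. Npas2, the relative of Clock, was at 0.884 FPKM in NCD-veh (about 87 fragments) and 0.0295 FPKM in HFD-ncls, and was listed at 0 in HFD-veh, so no fold is given. Cry1, encoding a repressor of the activating pair, was at 3.93, 3.002 and 3.80 FPKM. The 3 libraries of Cry1 lay within 1.31-fold of each other, and all 4 genes of the RORE arm were highest in NCD-veh.

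The genes of the E-box/D-box arm lay the other way, with Nr1d1 as the exception. Dbp was at 3.87 FPKM in NCD-veh, 54.8 FPKM in HFD-veh and 37.7 FPKM in HFD-ncls liver. Per2, a repressor of BMAL1 and CLOCK, was at 1.15, 5.89 and 7.39 FPKM, and Per3, its relative with the pair of D-boxes shown above, at 0.965, 6.09 and 5.27 FPKM. For Dbp, Per2 and Per3 the NCD-veh value was several-fold below both HFD values, which lay within 1.45-fold of each other. Nr1d2 was at 5.40, 13.9 and 8.10 FPKM, with the HFD-ncls value between the others. Per1, the Per gene that also responds directly to hormones and cell signals, was at 6.26, 7.64 and 9.78 FPKM and differed from HFD-veh by only 1.22-fold. Nr1d1 was at 19.5, 16.2 and 9.14 FPKM, highest in NCD-veh like the RORE arm, although its paralog Nr1d2 was lowest there.

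Counted against both HFD libraries at once, NCD-veh liver was over 2-fold above both for Arntl and over 2-fold below both for Per2, Per3 and Dbp. These are 4 of the 9 genes, and 2.74% of all 10137 genes tested in liver stood apart in this way (1.20% above and 1.54% below). By any amount, all 10 clock genes lay outside the range of the HFD libraries, 5 above (Arntl, Clock, Npas2, Cry1 and Nr1d1) and 5 below, as did 71.9% of all genes. These comparisons share the NCD-veh library, so a single library carries them. The fast muscle markers in liver summed to 2.13, 72.9 and 3.14 FPKM, which put the share of muscle RNA in HFD-veh liver at 0.0626%. Removing that share changes no clock gene in that library by more than 0.528% of its FPKM.

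In muscle, NCD-veh minus HFD-veh had the same sign as in liver for 8 of the 9 genes, all but Cry1, and was smaller in size for 7, all but Per1 and Nr1d1. The share of all genes with the same sign in both organs is not given here. Dbp was 2.83-fold and Per2 2.74-fold lower in the NCD-veh quadriceps than in that of HFD-veh, and these were 2 of the 9 genes over 2-fold, both lower, where 4.11% of 9587 genes were over 2-fold (0.97% higher and 3.14% lower). The count is 1 with a pseudocount of 1, which puts Per2 at -0.97 on the log2 scale, and at a minimum of 5 FPKM. The median size of the difference was 0.50 over the 9 genes and 0.17 over all genes.

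Dbp in muscle was at 19.4 FPKM in NCD-veh, 55.2 FPKM in HFD-veh and 48.2 FPKM in HFD-ncls. Per2 was at 0.986, 2.88 and 2.81 FPKM, and Per1 at 6.54, 12.01 and 12.4 FPKM. For all of Dbp, Per1 and Per2 the HFD libraries lay within 1.15-fold of each other and NCD-veh lay clearly below them. Per3, at 2.95, 4.03 and 4.77 FPKM, was also lowest in NCD-veh but by 1.36-fold from HFD-veh. Nr1d2 was nearly level at 16.1, 17.4 and 18.8 FPKM. Nr1d1, at 58.6, 41.4 and 43.9 FPKM, was highest in NCD-veh, as it was in liver.

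In the RORE arm, Arntl was at 6.45 FPKM in NCD-veh, 3.85 FPKM in HFD-veh and 4.36 FPKM in HFD-ncls muscle, a 1.66-fold difference from HFD-veh that did not reach the threshold. Clock was at 2.03, 1.43 and 1.83 FPKM and Npas2 at 0.139, 0.0176 and 0.107 FPKM, both highest in NCD-veh. Cry1 was at 2.62, 3.14 and 2.54 FPKM, with NCD-veh in between. By any amount, NCD-veh muscle lay above both HFD libraries for 4 of the 10 genes (Arntl, Clock, Npas2 and Nr1d1) and below both for 5, against 22.0% above and 39.9% below among all genes. Over 2-fold below both were Dbp and Per2, 2 of the 9 genes, where 0.368% of 9795 genes lay below both by this much and 0.51% lay apart on either side. The HFD-veh muscle library held liver markers summing to 458 FPKM, against 1.47 FPKM in NCD-veh and 0.820 FPKM in HFD-ncls muscle. The share of liver RNA this gives, 0.553%, accounts for at most 1.13% of the FPKM of any clock gene there, and Dbp and Per2 stayed over 2-fold apart after it was subtracted.

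In WAT the E-box/D-box arm was higher, not lower, in NCD-veh than in HFD-veh, which did not hold for the Per genes against HFD-ncls. Compared with HFD-veh, Dbp was 2.44-fold and Nr1d1 2.08-fold higher, Per3 1.76-fold and Nr1d2 1.75-fold higher, and all 6 genes of the arm differed in this direction. The share of all genes that were higher in NCD-veh is not given here. The median over all genes in this comparison was -0.03 on the log2 scale. Dbp and Nr1d1 made up the 2 of 9 genes over 2-fold, where 9.11% of 12208 genes were over 2-fold (3.87% higher and 5.24% lower). The median size of the difference was 0.43 over the 9 genes and 0.28 over all genes.

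Nr1d1 had its highest level of all 12 libraries in NCD-veh WAT, at 137 FPKM, and was at 65.7 FPKM in HFD-veh and 40.3 FPKM in HFD-ncls WAT. It was the only clock gene for which NCD-veh WAT lay over 2-fold from both HFD libraries, on the upper side, as 1.96% of 12403 genes did (4.89% lay as far below and 6.85% on either side). Nr1d2 was at 20.1, 11.4 and 12.9 FPKM, also highest in NCD-veh. Dbp was at 45.7 FPKM in NCD-veh, 18.6 FPKM in HFD-veh and 31.5 FPKM in HFD-ncls WAT. The Per genes did not separate NCD-veh from the HFD libraries in WAT, because HFD-ncls lay at or above NCD-veh. Per1 was at 15.2, 11.8 and 21.1 FPKM, Per2 at 3.88, 3.09 and 7.06 FPKM, and Per3 at 9.83, 5.53 and 9.90 FPKM, each lowest in HFD-veh. By any amount, NCD-veh WAT lay above both HFD libraries for 4 of the 10 genes (Dbp, Nr1d1, Nr1d2 and Npas2) and below both for 1 (Cry1), against 37.0% above, 47.0% below and 84.0% on either side among all genes.

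The RORE arm differed little in WAT. Arntl was at 2.54, 3.23 and 2.15 FPKM and Clock at 12.1, 16.1 and 11.1 FPKM, both highest in HFD-veh. Cry1 was at 1.81, 2.47 and 3.05 FPKM, lowest in NCD-veh. Npas2 was at 0.628, 0.453 and 0.162 FPKM, or about 54, 38 and 13 fragments. The adipocyte markers in WAT summed to 27030, 19150 and 17524 FPKM, and the macrophage markers to 612, 864 and 1087 FPKM. All 7 adipocyte and all 5 macrophage markers were above 0 in each WAT library. These sums moved with the groups, and their part in the clock gene values was not tested. In a whole organ, fewer cells of a type and less RNA per cell cannot be told apart.

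BAT was the organ with the smallest differences. None of the 9 genes differed over 2-fold between NCD-veh and HFD-veh, where 4.29% of 10444 genes did (2.01% higher and 2.28% lower), and none lay over 2-fold from both HFD libraries, where 2.41% of genes did (1.44% above). By any amount, NCD-veh lay above both for 5 of the 10 genes (Dbp, Npas2 and the 3 Per genes) and below both for 4, against 44.8% above, 32.0% below and 76.8% on either side among all genes. The median size of the difference was 0.28 over the 9 genes and 0.21 over all genes.

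In BAT, Nr1d1 was at 29.5 FPKM in NCD-veh, 42.7 FPKM in HFD-veh and 44.9 FPKM in HFD-ncls, lowest in the group in which the other organs had their highest value. Per1 was at 13.003, 8.99 and 7.19 FPKM, with HFD-ncls 1.80-fold below NCD-veh. Dbp was at 14.2, 11.3 and 13.5 FPKM, Per2 at 3.82, 3.22 and 3.44 FPKM, and Per3 at 8.49, 5.86 and 8.35 FPKM, each lowest in HFD-veh. Nr1d2 was at 6.18, 7.08 and 7.95 FPKM. Arntl, at 1.27, 1.49 and 1.37 FPKM, and Clock, at 2.38, 2.92 and 2.62 FPKM, were lowest in NCD-veh. Cry1 was at 1.51, 1.77 and 1.28 FPKM and Npas2 at 0.344, 0.239 and 0.203 FPKM. Fast muscle markers summed to 2165, 924 and 133 FPKM in BAT, all 9 above 0 in each. The shares of muscle RNA this gives, 1.89%, 0.767% and 0.123%, account for at most 9.64%, 3.74% and 0.436% of the FPKM of any clock gene in these libraries. With the muscle share subtracted, still none of the 9 genes differed over 2-fold.

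**Figure D2:**
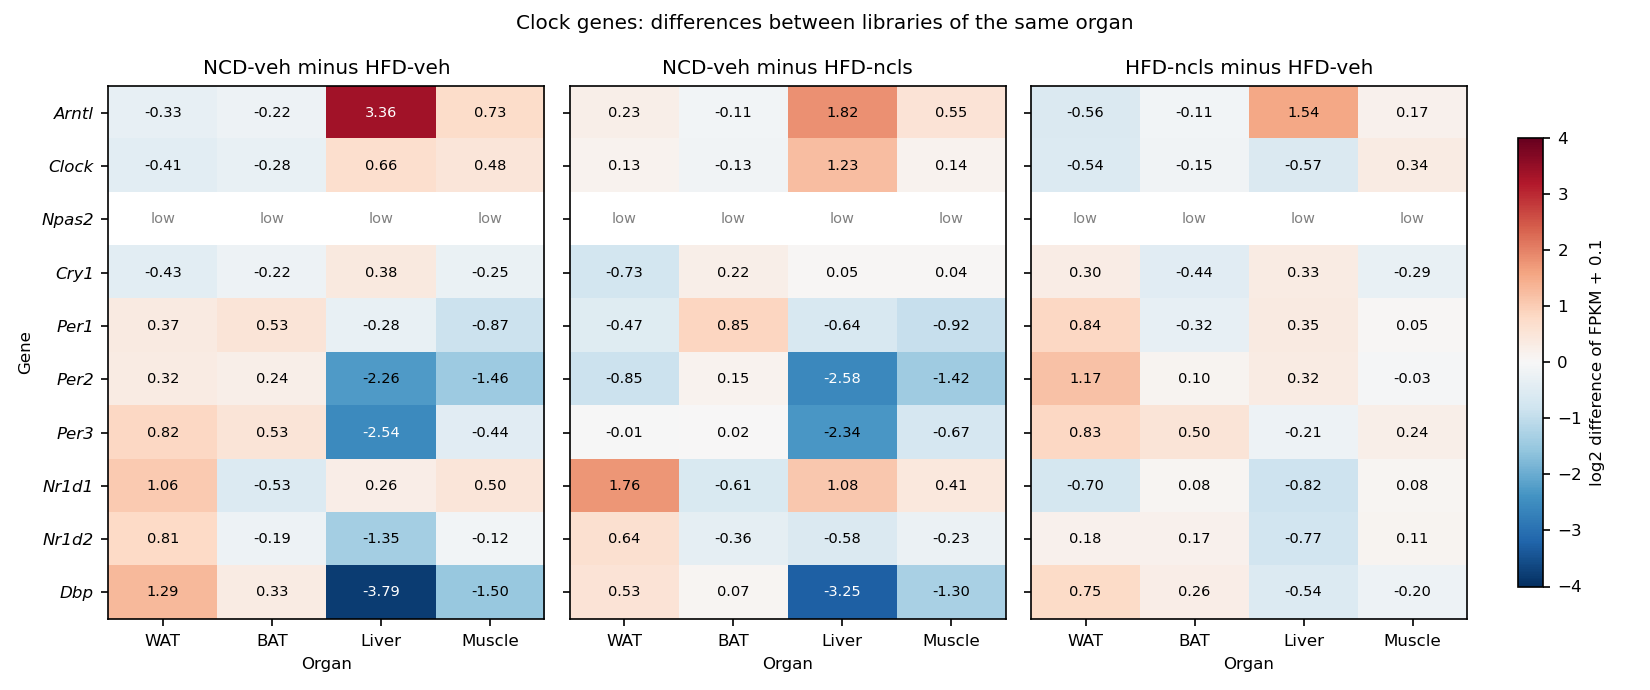
Log2 differences of FPKM + 0.1 for the 10 clock genes (rows) in each organ (columns), for NCD-veh minus HFD-veh, NCD-veh minus HFD-ncls and HFD-ncls minus HFD-veh, with low where neither library reached 1 FPKM. In the first comparison Dbp runs from 1.29 in WAT to -3.79 in liver, and the BAT column stays within 0.53 of 0 on the log2 scale for the 9 genes that reached 1 FPKM.

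Set side by side, the organs did not share a direction. For Dbp, NCD-veh minus HFD-veh was 1.29 on the log2 scale in WAT and 0.33 in BAT, but -3.79 in liver and -1.501 in muscle. It was the only one of the 9 genes over 2-fold higher in 1 organ and over 2-fold lower in another, as 0.914% of 7881 genes were. Per2 differed by 0.32 in WAT, 0.24 in BAT, -2.26 in liver and -1.46 in muscle, and Per3 by 0.82, 0.53, -2.54 and -0.44. Arntl was slightly lower in NCD-veh in WAT (-0.33) and BAT (-0.22) and higher in liver (3.36) and muscle (0.73). Clock had the same signs, at -0.41, -0.28, 0.66 and 0.48. Only Npas2, below 1 FPKM throughout, had a higher NCD-veh than HFD-veh value in all 4 organs.

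The arms were compared by the median, over their genes, of NCD-veh minus the mean of both HFD libraries on the log2 scale. In liver the median was 0.95 over the RORE arm (3 genes, without Npas2) and -1.69 over the 6 genes of the E-box/D-box arm, which put the arms 2.64 apart. In muscle the medians were 0.31 and -0.72, with the arms 1.04 apart in the same order. In WAT the order was opposite, at -0.14 and 0.56, and in BAT it was opposite and small, at -0.16 and 0.20. The median over all genes lay between -0.05 and 0.05 in every organ. The medians of the arms thus stood on either side of it in liver and muscle, with the RORE arm above, and in WAT and BAT with the RORE arm below. Single genes of the arms overlapped in every organ. Nr1d1 lay above Cry1 in liver (0.67 and 0.21) and in muscle (0.46 and -0.11). Per2 lay below Arntl in WAT (-0.26 and -0.05), and Nr1d1 below Clock in BAT (-0.57 and -0.21).

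**Figure D3:**
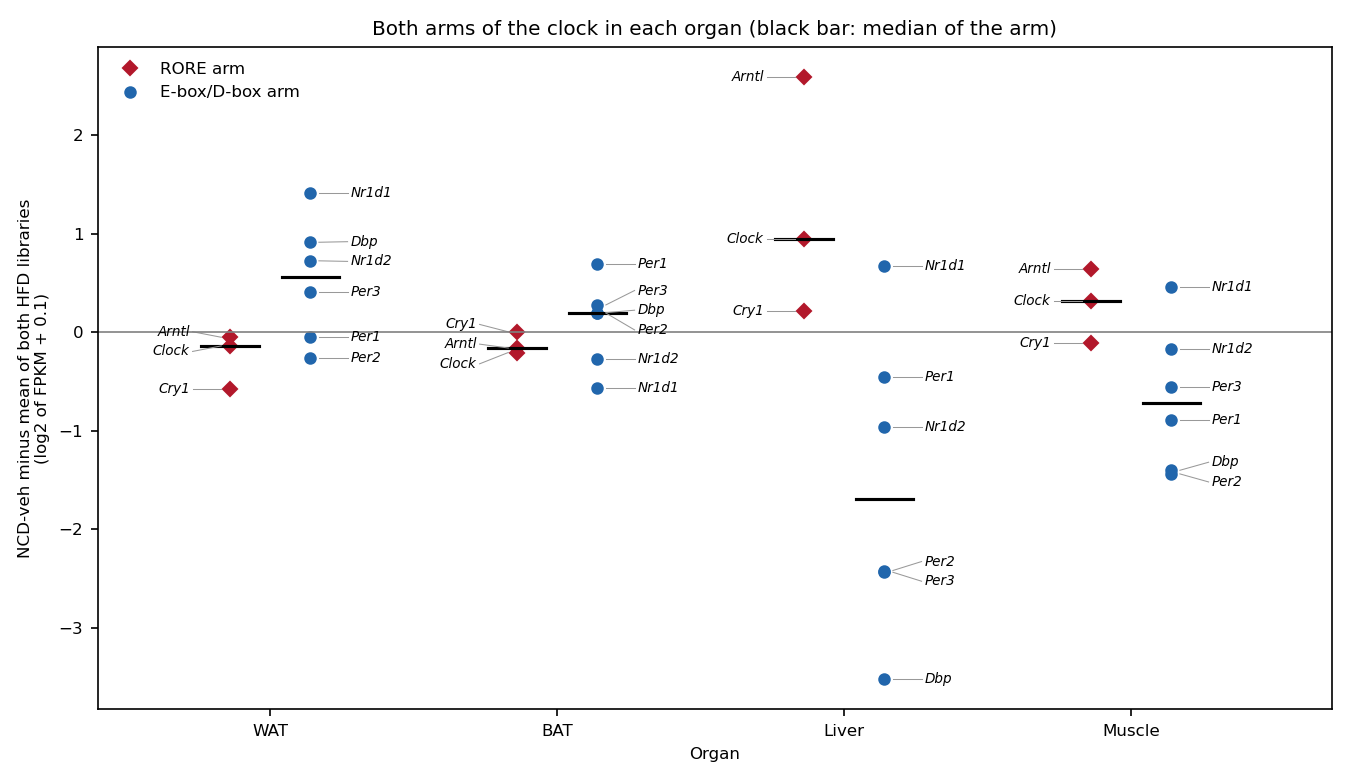
NCD-veh minus the mean of HFD-veh and HFD-ncls (log2 of FPKM + 0.1) for each clock gene that reached 1 FPKM, by organ, with diamonds for the RORE arm, circles for the E-box/D-box arm and black bars for the medians. The bars are 2.64 apart in liver and 1.04 apart in muscle with the RORE arm on top. In WAT and BAT the bar of the E-box/D-box arm is on top, and single genes of the arms overlap in every organ.

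A ratio of 2 clock genes inside 1 library does not depend on how libraries were scaled to each other. The log2 ratio of Arntl to Dbp was 0.52 in NCD-veh liver, the only library in which Arntl was above Dbp. The HFD-veh and HFD-ncls livers were at -6.62 and -4.55, so that the liver libraries covered a wider span than all the others together. In muscle the ratio was -1.58, -3.81 and -3.44. In WAT it was -4.11, -2.49 and -3.81 and in BAT -3.39, -2.85 and -3.22, in both organs with NCD-veh lowest and HFD-veh highest. The log2 ratio of Arntl to its repressor Nr1d1 was -1.78, -4.87 and -2.51 in liver, and moved by only 0.23 in muscle, between -3.39 and -3.16. In WAT it was -5.70, -4.30 and -4.16 and in BAT -4.44, -4.75 and -4.94.

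**Figure D4:**
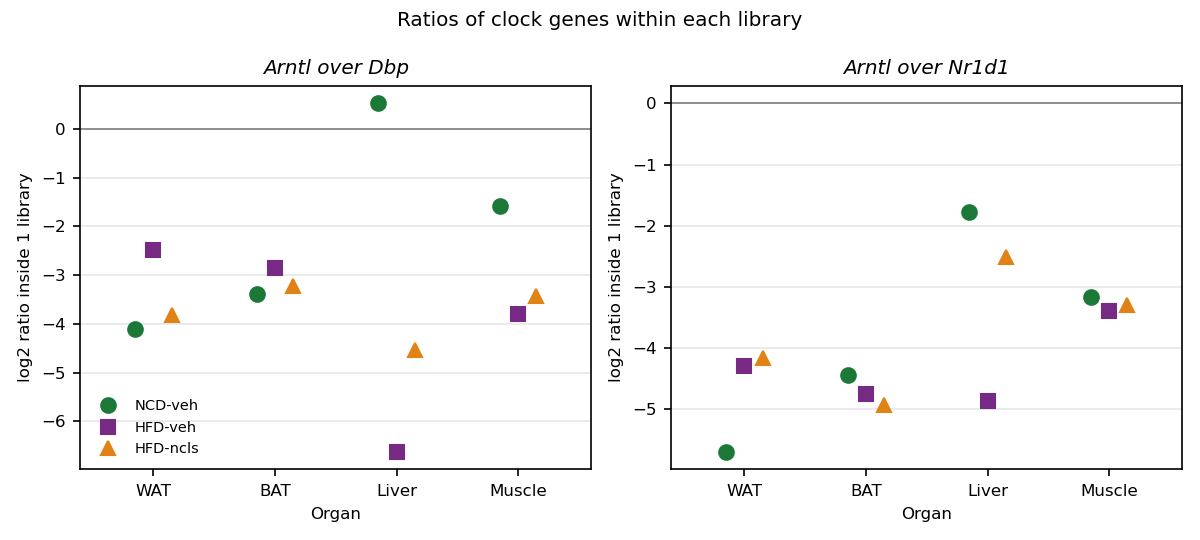
Log2 ratios of Arntl to Dbp and of Arntl to Nr1d1 inside each of the 12 libraries, computed on FPKM + 0.1 and grouped by organ. The Arntl to Dbp ratio runs from -6.62 in HFD-veh liver to 0.52 in NCD-veh liver, and in WAT and BAT NCD-veh is the lowest of the 3.

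The libraries with and without ncls under HFD were compared as HFD-ncls against HFD-veh, which shares its HFD-veh library with the diet comparison. In WAT, Per2 was 2.25-fold higher in HFD-ncls, and Per1 (1.79-fold), Per3 (1.78-fold) and Dbp (1.69-fold) were also higher without reaching the threshold. Nr1d1 was 1.63-fold, Arntl 1.48-fold and Clock 1.45-fold lower. Per2 was the 1 gene of 9 over 2-fold, where 1.70% of 12152 genes were (1.49% higher), and with a pseudocount of 1 its difference was 0.98 on the log2 scale and the count 0. The median size of the difference was 0.70 over the 9 genes and 0.14 over all genes. Liver markers summed to 183 FPKM in HFD-ncls WAT and 49.2 FPKM in HFD-veh WAT, and the liver share of 0.236% in HFD-ncls accounts for at most 0.294% of any clock gene there. 

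In liver, Arntl was 2.91-fold higher in the HFD-ncls library than in the HFD-veh library. It was the 1 gene of 9 over 2-fold, where 2.31% of 9956 genes were (1.00% higher). Nr1d1, its repressor, was 1.77-fold and Nr1d2 1.71-fold lower, and Clock (1.49-fold), Dbp (1.45-fold) and Per3 (1.15-fold) were lower as well. Cry1, Per1 and Per2 were higher by 1.26-fold, 1.28-fold and 1.25-fold. The median size of the difference was 0.54 over the 9 genes and 0.21 over all genes. The Arntl value in HFD-veh liver rests on about 30 fragments. With a pseudocount of 1 the difference of Arntl was 0.79 on the log2 scale and no gene was over 2-fold, and none was at a minimum of 5 FPKM.

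In muscle no clock gene differed over 2-fold between HFD-ncls and HFD-veh, where 3.80% of 9694 genes did (1.27% higher and 2.53% lower). The 9 differences lay between -0.29 (Cry1) and 0.34 (Clock) on the log2 scale, with a median size of 0.17 against 0.18 over all genes. In BAT none differed over 2-fold either, where 1.96% of 10331 genes did (0.261% higher and 1.70% lower). The 9 differences there lay between -0.44 (Cry1) and 0.50 (Per3), with a median size of 0.17 against 0.15 over all genes.

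Against NCD-veh, the HFD-ncls libraries gave 6 of 9 genes over 2-fold in liver, where 5.2% of 9961 genes were over 2-fold (2.58% higher and 2.62% lower). Dbp (9.53-fold), Per2 (5.99-fold) and Per3 (5.05-fold) were higher in HFD-ncls, and Arntl (3.53-fold), Clock (2.35-fold) and Nr1d1 (2.12-fold) were lower. In muscle Per2 (2.68-fold) and Dbp (2.47-fold) were higher, 2 of 9 genes, where 1.21% of 9516 genes were over 2-fold (0.893% higher). In WAT Nr1d1 was 3.40-fold lower, the 1 gene of 9, where 9.59% of 12357 genes were over 2-fold (7.11% higher and 2.48% lower), and in BAT there was none, where 4.10% of 10365 genes were. These values share a library with each of the other comparisons and are not independent of them.

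Levels were also compared between organs, ordered by the median of their libraries. For some genes the ranges of neighbouring organs did not overlap, and for others they did. The share of all genes whose ranges do not overlap is not given here. Clock was highest in WAT, at 11.1 to 16.1 FPKM, and the next organ, BAT, did not reach it (2.38 to 2.92 FPKM), while liver (1.61 to 3.93 FPKM) overlapped both BAT and muscle (1.43 to 2.03 FPKM). Arntl was highest in muscle (3.85 to 6.45 FPKM), above the range of WAT (2.15 to 3.23 FPKM). Liver Arntl spanned both, from 0.457 to 5.61 FPKM. Nr1d1, the most abundant clock gene by FPKM in WAT and BAT, had overlapping ranges in WAT, muscle and BAT, and the liver range of 9.14 to 19.5 FPKM lay below that of BAT. Dbp ranged from 11.3 to 14.2 FPKM in BAT, below its range in WAT (18.6 to 45.7 FPKM), and the ranges of muscle, liver and WAT overlapped.

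For the repressors, Cry1 overlapped between liver (3.002 to 3.93 FPKM), muscle and WAT, and BAT (1.28 to 1.77 FPKM) lay below WAT. Per1 and Per3 overlapped between all neighbouring organs, with WAT highest by the median for both. Per2 in muscle (0.986 to 2.88 FPKM) lay below BAT (3.22 to 3.82 FPKM), and Nr1d2 had overlapping neighbours throughout, with muscle highest. In liver the highest library exceeded the lowest by 14.2-fold for Dbp, 12.3-fold for Arntl, 6.42-fold for Per2 and 6.32-fold for Per3, more than in any other organ for these 4 genes. Nr1d1 (3.40-fold) and Cry1 (1.69-fold) spanned most in WAT and Per1 (1.90-fold) in muscle. In BAT the 9 genes spanned 1.18-fold (Arntl) to 1.81-fold (Per1).

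The rest of the clock was described through lists of named genes. Of 11 other core genes, 8 reached 1 FPKM in liver, and 4 of them differed over 2-fold between NCD-veh and HFD-veh, 1 higher (Nfil3) and 3 lower (Gm129, Bhlhe40 and Tef), with a median of -0.64, where 5.12% of all genes tested in liver were over 2-fold. In WAT 3 of 9 did, 2 higher (Gm129 among them) and 1 lower (Nfil3), in BAT 1 of 10 (Gm129, higher), and in muscle none of 9, where 9.11%, 4.29% and 4.11% of all genes were over 2-fold. Gm129, now named Ciart, encodes a repressor of BMAL1 and CLOCK, and its NCD-veh minus HFD-veh difference had the sign of that of Dbp in each organ. It was at 2.43, 11.9 and 14.2 FPKM in liver and at 2.35, 3.71 and 4.81 FPKM in muscle, lowest in NCD-veh. In WAT it was at 1.54, 0.681 and 1.496 FPKM and in BAT at 3.53, 1.57 and 2.77 FPKM, highest in NCD-veh. Nfil3, with the ROR core shown above, went the other way in liver and WAT only. It was at 22.3, 7.28 and 15.01 FPKM in liver, with NCD-veh highest, and at 1.00, 3.33 and 5.87 FPKM in WAT, with NCD-veh lowest. In BAT it was at 8.72, 5.38 and 5.64 FPKM, with NCD-veh highest like Gm129. In muscle it was at 8.10, 10.3 and 9.81 FPKM, with NCD-veh lowest like Gm129.

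Of 10 genes whose transcripts follow the clock in many organs, all reached 1 FPKM in liver, and 7 differed over 2-fold between NCD-veh and HFD-veh, 1 higher and 6 lower, with a median of -1.49, beside 5.12% of all genes. Wee1, a kinase that holds back cell division, was at 0.632 FPKM in NCD-veh, 5.52 FPKM in HFD-veh and 4.10 FPKM in HFD-ncls liver, the lowest difference of the list (-2.94). Usp2, a deubiquitinase, was at 6.22, 23.5 and 27.7 FPKM, and Nampt, the rate-limiting enzyme of NAD salvage, at 6.68, 17.1 and 14.2 FPKM. Both were higher in NCD-veh in BAT, Usp2 at 20.2, 9.39 and 9.88 FPKM and Nampt at 54.1, 26.4 and 32.1 FPKM. Ccrn4l, now Noct, was lower in NCD-veh in liver (4.46, 14.04 and 21.1 FPKM) and also in WAT (4.75, 14.01 and 12.9 FPKM). Cdkn1a, the cell cycle inhibitor p21, was at 10.4, 1.46 and 2.45 FPKM in liver and 6.49, 3.02 and 4.30 FPKM in muscle, higher in NCD-veh. In WAT it was at 9.73, 77.2 and 67.4 FPKM, lower in NCD-veh. Over 2-fold differences were found for 3 of 10 outputs in WAT (all lower), 2 of 9 in BAT (both higher) and 1 of 9 in muscle (Cdkn1a, higher), beside 9.11%, 4.29% and 4.11% of all genes.

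The kinases, phosphatase and ubiquitin ligases that set the stability of clock proteins did not differ over 2-fold in any organ or comparison. Of 11, 10 reached 1 FPKM in WAT, BAT and muscle and 11 in liver, and their NCD-veh minus HFD-veh differences lay between -0.42 and 0.59 on the log2 scale. These include Csnk1d and Csnk1e, whose kinases mark PER for destruction. Of 8 genes that respond to body temperature, heat shock or glucocorticoids, signals through which the rest of the body reaches organ clocks, 1 was over 2-fold higher in NCD-veh against HFD-veh in liver and 1 in BAT, where 2.27% and 2.01% of all genes were. These were Hspa1b, a heat shock gene, at 9.18, 2.24 and 3.29 FPKM in liver, and Fkbp5, a glucocorticoid target, at 8.29, 2.88 and 2.19 FPKM in BAT. None of the 8 was over 2-fold in WAT or muscle in this comparison. In HFD-ncls against NCD-veh WAT 3 were over 2-fold higher (Fkbp5, Sgk1 and Tsc22d3), where 7.11% of all genes were. In HFD-ncls against HFD-veh, Sgk1 was over 2-fold lower in both muscle and BAT. It was at 75.6 FPKM in HFD-veh and 35.3 FPKM in HFD-ncls muscle, where 2.53% of all genes were lower. In BAT it was at 39.2 FPKM in HFD-veh and 19.0 FPKM in HFD-ncls, where 1.70% were lower.

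**Figure D5:**
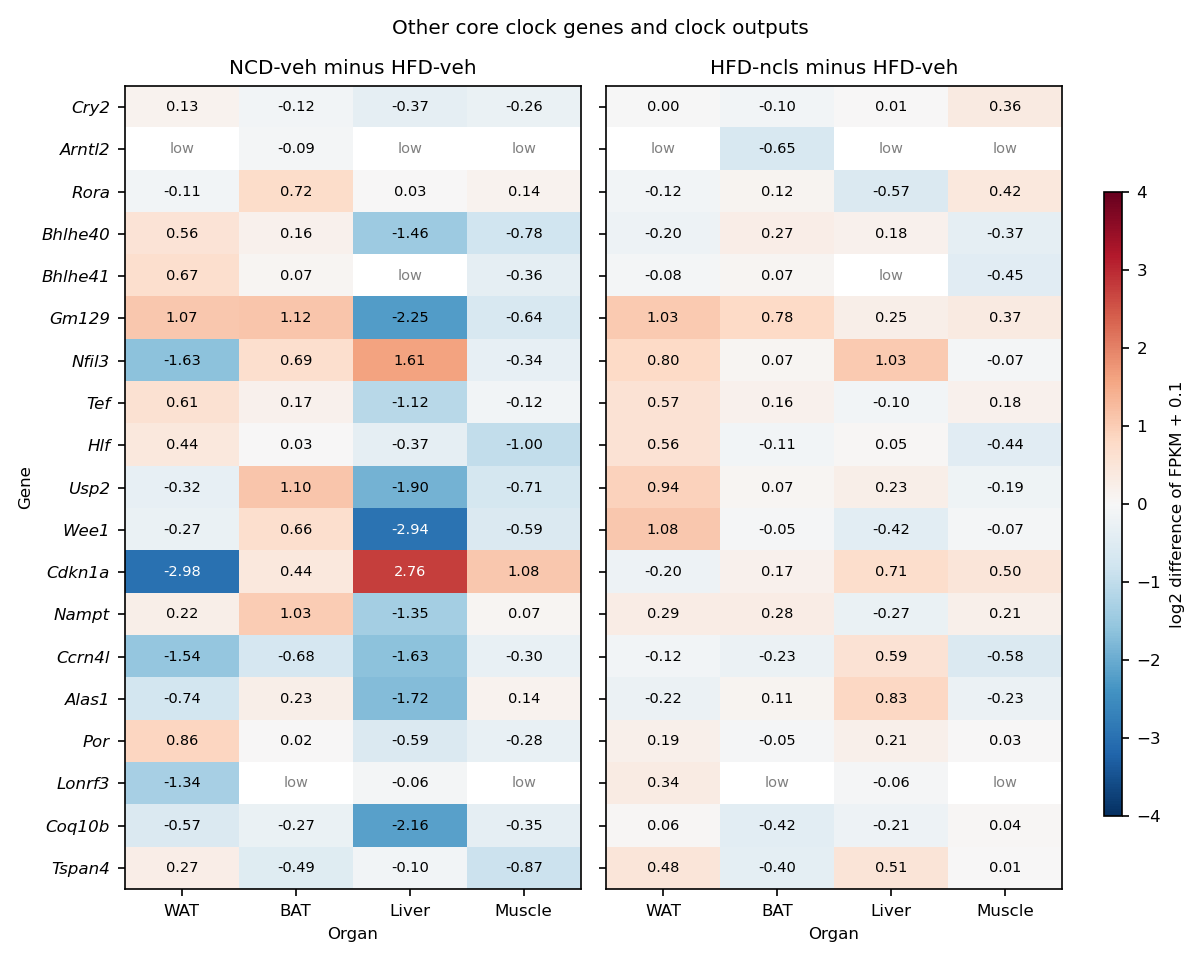
Log2 differences of FPKM + 0.1 for the other core clock genes and clock outputs shown (rows) by organ (columns), for NCD-veh minus HFD-veh and HFD-ncls minus HFD-veh; cells marked low did not reach 1 FPKM in either library. In the first comparison liver and WAT have opposite signs for Gm129, Nfil3 and Cdkn1a, and Wee1 has the lowest liver value (-2.94).

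The genes most like Arntl and most like Dbp were sought among 75 other genes that reached 1 FPKM in all 12 libraries and varied within organs. The measure was the Pearson r of log2 values centred on the mean of each organ, over 12 libraries that share their organs, groups and depth. It describes these libraries and has no p. The 10 genes most like Arntl were Clpx (r = 0.78), Mt1 (0.76), Mt2 (0.65), Cdkn1a (0.65), Phospho1 (0.64), Sco2 (0.57), Ppp1r3c (0.54), Hmga1 (0.50), Nfil3 (0.43) and Osgin1 (0.39). The liver carried this order. Without its libraries, r over the other 9 was 0.43 for Clpx and -0.32 for Mt1, and lay between -0.48 and 0.43 over the 10 genes. The metallothionein Mt1 was at 1431 FPKM in NCD-veh, 200 FPKM in HFD-veh and 227 FPKM in HFD-ncls liver, and Clpx, a subunit of a mitochondrial protease, at 64.97, 17.9 and 14.4 FPKM.

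The 10 genes most like Dbp were Mid1ip1 (r = 0.85), Thrsp (0.85), Srebf1 (0.83), Coq10b (0.82), Idi1 (0.81), Acacb (0.80), 1810011O10Rik (0.80), Jun (0.80), Egr1 (0.77) and Usp2 (0.75). Srebf1, which encodes a master regulator of lipogenic genes, was at 13.3, 69.9 and 95.04 FPKM in liver. Thrsp, a lipogenic gene that responds to feeding, was at 27.4, 887 and 1570 FPKM, and Egr1, an early response gene, at 1.89, 47.5 and 66.6 FPKM. Unlike Dbp, these 3 were higher in the HFD-ncls liver than in the HFD-veh liver. Without liver, r over 9 libraries fell to between -0.54 (Srebf1) and 0.46 (Mid1ip1), so that the likeness to Dbp rests on the liver libraries. Among the clock genes themselves, the centred r with Arntl over 12 libraries was -0.92 for Dbp, -0.90 for Per3, -0.80 for Per2 and -0.82 for Nr1d2, and 0.24 for Nr1d1.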

How the data were processed

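Total RNA of the 4 organs was made into Illumina libraries, 1 per organ and group. The authors used TopHat 2.0.11 on mm9 and deposited FPKM from Cufflinks on RefSeq genes, 1 value per symbol and library, with no further scaling stated. A missing value was given for 86 symbols, none of them a clock gene. FPKM is not a count, so no count test was used. Log2 differences used a pseudocount of 0.1, a minimum of 1 FPKM and a 2-fold threshold. Depth was estimated from whole-fragment steps in low FPKM and annotated transcript lengths, and its precision covers counting only. Organ shares are medians over markers of FPKM divided by that of the source organ in the same group. The members and lists were chosen with earlier results of these data known. Named genes were the 10 members, listed genes over 2-fold in at least 2 organs or at the extreme of their list, and the 10 most like Arntl and Dbp. Bhlhe40, Tef, Csnk1d, Csnk1e, Cirbp, Rbm3, Sgk1 and Tsc22d3 were named after their values were seen. Some genes of the lists are not reported by name here. Positions come from GENCODE on mm9. Scripts were tested on simulated data. Alternatives changed the pseudocount, filter, threshold, scaling, organ content and correlation. Python 3.11.15, numpy 2.4.6, pandas 2.3.3 and matplotlib 3.10.9 were used.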

Additional observations from a re-analysis of the deposited data

Results flagged for a closer look

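The NCD-veh minus HFD-veh difference of Dbp was 1.29 on the log2 scale in WAT and -3.79 in liver, a gap of 5.08 between organs under the same contrast. It was singled out because the libraries of the organs moved in opposite directions, each by over 2-fold. With 1 library per organ and group the difference between the organs was not tested.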

How the results depend on the processing

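No difference over 2-fold changed sign under any alternative. Rescaling turned the sign of Per3 in HFD-ncls against NCD-veh, from 0.01 to -0.05 in WAT and from -0.02 to 0.03 in BAT, both near 0. With a pseudocount of 0.01, with rescaling by the median ratio (shifts of at most 0.04 on the log2 scale) and with liver and muscle RNA shares subtracted, all 24 main results (counts of clock genes, arm shifts and Arntl to Dbp ratios) kept their sign and stayed within 1.5 times. With a pseudocount of 1, the genes over 2-fold became 1 instead of 2 in muscle in both comparisons with NCD-veh, and 1 instead of 2 apart from both HFD libraries, where the difference of Per2 became -0.97 against HFD-veh. The HFD-ncls against HFD-veh counts became 0 instead of 1 in WAT and in liver, where the difference of Arntl became 0.79. Without a filter, WAT had 2 genes over 2-fold instead of 1 in both comparisons of HFD-ncls, the added gene being Npas2. At 5 FPKM, muscle had 1 instead of 2 in both comparisons with NCD-veh and 1 apart from both HFD libraries, liver had 0 instead of 1 for HFD-ncls against HFD-veh, and the liver arm shift was 4.28 instead of 2.64. The BAT arm shift had no value there, since no RORE-arm gene was left. At 1.4-fold, NCD-veh against HFD-veh gave 4 genes in WAT, 3 in BAT and 5 in muscle, HFD-ncls against HFD-veh gave 7 (WAT), 1 (BAT) and 5 (liver), and HFD-ncls against NCD-veh gave 5 in WAT, 2 in BAT and 5 in muscle. Apart from both HFD libraries were then 3 in WAT, 2 in BAT and 4 in muscle. The share of all genes past 1.4-fold is not given here, so the counts at 1.4-fold have no background beside them. By Spearman's rho, 9 of the 10 genes most like Arntl and 5 of the 10 most like Dbp were the same, out of 75 genes ranked. The rho values themselves were lower than r. With Arntl they ran from 0.05 (Nfil3) to 0.59 (Clpx) over its 10 genes, with Mt1 at 0.16 and Mt2 at 0.15. With Dbp they ran from 0.38 (Srebf1) to 0.76 (Thrsp). No paired analysis was possible because each group of an organ has 1 library, so that no replicate numbers pair libraries of an organ. For the same reason no replicate could be left out of a group, and the liver libraries were left out only for the likeness to Arntl and Dbp. Depth limits Arntl in HFD-veh liver and Npas2 throughout.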

Other observations

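The remaining systemic cue genes, which did not differ over 2-fold between NCD-veh and HFD-veh, include the cold-inducible RNA-binding genes Cirbp and Rbm3. In liver, Cirbp was at 13.5 FPKM in NCD-veh, 7.95 FPKM in HFD-veh and 9.11 FPKM in HFD-ncls, and Rbm3 at 16.8, 9.71 and 11.2 FPKM, both highest in NCD-veh. The glucocorticoid target Tsc22d3 was at 45.1, 58.4 and 111 FPKM in WAT and at 29.2, 16.3 and 14.8 FPKM in BAT, so that NCD-veh was lowest in WAT and highest in BAT. Fkbp5, another glucocorticoid target, was at 9.98, 16.3 and 22.4 FPKM in WAT, where NCD-veh was lowest, and was highest in NCD-veh in BAT. Sgk1, of the same list, did not share this pattern in BAT. It was at 10.9, 18.3 and 27.2 FPKM in WAT, with NCD-veh lowest, but at 21.3, 39.2 and 19.0 FPKM in BAT, with NCD-veh in between. The brown adipocyte markers summed to 8225 to 10118 FPKM in BAT, 41.2 to 85.2 FPKM in WAT and 45.1 to 157 FPKM in liver. In muscle they summed to 1728 to 1866 FPKM, although the median marker there was at 0.201 to 0.498 FPKM, so the list is not particular to BAT. The lymphocyte markers summed to 7.07, 1.96 and 5.596 FPKM in WAT and to at most 1.45 FPKM in the other organs.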
